A study of Homo sapiens with 4 samples.

Results

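Differential ac4C peaks of the 3′-UTR that carry a single listed site of a C-rich motif were described in FaDu cells, an established line of hypopharyngeal squamous cell carcinoma. The study asked which transcripts differ in N4-acetylcytidine (ac4C) when NAT10 is depleted. Cells carried either a control short hairpin RNA (shNC) or a hairpin against NAT10 (shNAT10), and acRIP-seq gave 1 immunoprecipitated (IP) library and 1 input library per condition, 4 libraries in all. According to the study's methods, the depleted lines were stable lines made with lentiviral hairpins and selected with puromycin, and the labels name no replicate culture, clone or second hairpin for the acRIP-seq. The members were selected on the authors' differential call, the region class that their table gives (3′-UTR) and the number of sites listed for the peak (1). They were 350 peaks in 342 genes, out of 2807 differential peaks in 2483 genes (12.5%). Of the 1575 differential peaks in the 3′-UTR, 22.2% had 1 site, 43.4% (684) had 0 sites and 34.3% (541) had 2 or more. Just outside the limit lay those 684 peaks and, on the other side, 235 peaks with 2 sites.

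NAT10 is the acetyltransferase that writes ac4C, in which an acetyl group sits on the base of a cytidine. The mark is well known in ribosomal and transfer RNA, and in messenger RNA it has been tied to stability and translation. The 3′-UTR lies between the stop codon and the poly(A) tail and holds binding sites for RNA-binding proteins and microRNAs. In acRIP-seq, RNA fragments are pulled down with an antibody against ac4C, and a peak is a stretch where the IP library holds more reads than the input library. A peak therefore shows a stretch of fragments, and not which of its cytidines was acetylated.

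The listed motif has a C every 3 bases over 12 bases, CNNCNNCNNCNN, where N is any base. Matches were looked for on the transcript strand only. A listed site could be checked against RefSeq sequence of GRCh38.p14 where it fell in a reference window, and all 38 such sites of the whole differential table matched the motif. One of them belongs to a member, the peak of AKR1C2, an aldo-keto reductase of steroid metabolism. It is shown with 9 bases on each side beside sites of STRN4 and ID1, which are no members, because these 3 differ in how many further matches share bases with the site. The peak of AKR1C2 has 1 listed site, that of STRN4 has 3 and that of ID1 has 8. Capitals mark the 4 cytidines of the motif, and all run 5′ to 3′ on the transcript strand.
AKR1C2, chr10:4995376-4995387, minus strand: ctgcgctacCagCtgCagCgtggggttgtg
STRN4, chr19:46719699-46719710, minus strand: ttcatggcgCcgCccCacCcgcattatcac
ID1, chr20:31605405-31605416, plus strand: cgccagtggCagCacCgcCaccgccgccgc
The site of AKR1C2 had no further match that shared bases with it, that of STRN4 had 1 and that of ID1 had 6. Over the 38 sites, 17 had at least 1 such further match, 42 matches in total. Of the peaks with 1 listed site and a reference window, AKR1C2 and BST2 had 0 further matches and ERP29 had 1, and for the other members the number is not known. The peak of AKR1C2 spans 4 exonic blocks, and its class is that of the whole peak. Its site lay 5′ of the peak midpoint, at 38.3% of the length. The class thus does not place the site in the 3′-UTR, and whether the site lies in coding sequence was not determined. Reads of this gene can be shared with close relatives such as AKR1C1, which was not checked. No reference window held the site of another member.

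Most members were short stretches of a single exon. In 313 of the 350 (89.4%) the peak was 1 exonic block, and in 37 it joined several blocks, up to 6. There were 185 members on the plus strand and 165 on the minus strand, over 23 chromosomes, with 0 on the mitochondrial genome. Of the members, 348 were annotated to protein-coding genes, 1 to a processed pseudogene and 1 to a processed transcript. The median exonic length was 240 nt (quartiles 181 and 330, range 119 to 805), between the 210 nt of 3′-UTR peaks with 0 sites and the 330 nt of those with 2 or more. A longer peak has more bases in which a site can be listed.

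Within the peak, the sites were spread over the whole length. The exonic sequence was cut into 3 equal parts from the 5′ to the 3′ end, and 107 sites (30.6%, 95% Wilson interval 26.0 to 35.6) had their midpoint in the 5′ part, 126 (36.0%, 31.1 to 41.2) in the middle part and 117 (33.4%, 28.7 to 38.5) in the 3′ part. The intervals cover the sampling of peaks only. The median distance of the site from the midpoint of the peak was 52 nt (quartiles 30.5 and 80.9), and 168 sites (48.0%) lay within 50 nt of it. There were 185 sites 3′ of the midpoint and 165 sites 5′ of it. The share in the middle part was 33.9% among members with a peak in the shNC list only, 33.9% among those in the shNAT10 list only and 40.4% among those in both lists, and the intervals of the 3 groups overlapped.

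Members were selected as 3′-UTR peaks, so a place towards the 3′ end of the gene follows from the rule. The annotated 3′ end of the gene in RefSeq could be set against 342 members. The median distance along the genome from the 3′ edge of the peak to that end was 267 nt (quartiles 60.3 and 1602). Some members lay far from it, such as that of PDE4DIP at 51264 nt. Within 500 nt of that end lay 207 members (60.5%, 55.3 to 65.6), as against 48.0% (44.2 to 51.8) of the 3′-UTR peaks with 0 sites and 70.9% (66.9 to 74.6) of those with 2 or more. The median distances of these groups were 555 and 120 nt. The members stood between the other groups. The 3 intervals did not overlap, but they cover the sampling of peaks only, and the difference was not tested. Annotated ends are those of the longest extent of the gene, and a transcript that ends earlier brings a peak nearer to its own end.

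**Figure D1:**
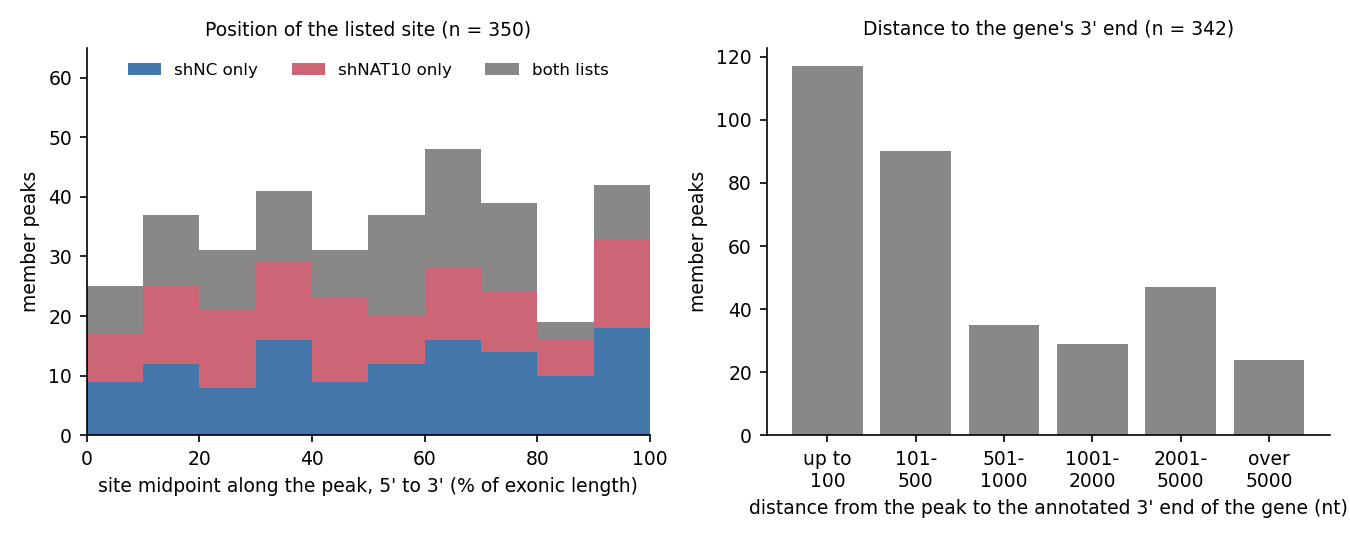
Left, number of member peaks by the position of the site midpoint along the peak, in percent of the exonic length from 5′ to 3′, in steps of 10%, stacked by the peak lists that hold the member (350 members). Right, number of member peaks by the distance in nt, along the genome, from the peak to the annotated 3′ end of the gene (342 members). Sites were spread over the whole peak, from 19 to 48 members a step, and 117 members lay within 100 nt of the gene's end.

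The shNC list held 6403 peaks and the shNAT10 list 6417, each called on 1 IP library against 1 input library, and the median fold enrichment of IP over input was 12.4 in both. Totals of reads per library are not among the values used here, so the depth behind a peak is unknown. A member was said to be in a list when at least 1 base of its exonic blocks lay in a peak of that list on the same strand. Of the members, 124 (35.4%, 30.6 to 40.6) were in the shNC list only, 112 (32.0%, 27.3 to 37.1) in the shNAT10 list only and 114 (32.6%, 27.9 to 37.6) in both. Over all differential peaks these shares were 32.2% for shNC only, 27.3% for shNAT10 only and 40.4% for both lists. The rule used the contrast between the conditions, so these counts describe the members and test nothing. With 1 library of each kind per condition, no p-value was computed, and a difference between the hairpins cannot be told apart from a difference between cultures or libraries.

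The 3 classes were nearly even in size among members, unlike in the groups on either side. Among 3′-UTR peaks with 0 sites, 41.5% were in shNC only, 35.5% in shNAT10 only and 23.0% in both lists (20.0 to 26.3). With 2 or more sites, 24.4%, 18.9% and 56.7% (52.5 to 60.9) were found. The share of members in both lists (27.9 to 37.6) lay between these. The intervals cover the sampling of peaks only and not that of libraries, so the order of the groups was not tested. Peak length moved with this share. Up to 200 nt, 3 of 117 members (2.56%) were in both lists, from 201 to 300 nt 44 of 132 (33.3%) and above 300 nt 67 of 101 (66.3%). At up to 200 nt the shares were 2.33% with 0 sites and 2.5% with 2 or more, within the members' interval. At 201 to 300 nt they were 23.5% and 30.3%, and all 3 intervals overlapped. Above 300 nt they were 70.3% and 84.3%, and peaks with 2 or more sites (79.8 to 88.0) lay above the members (56.7 to 74.8). The median length was 210 nt for members in shNC only, 195.5 nt for those in shNAT10 only and 330 nt for those in both lists. The part of length in the order of the 3 site groups was not tested.

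**Figure D2:**
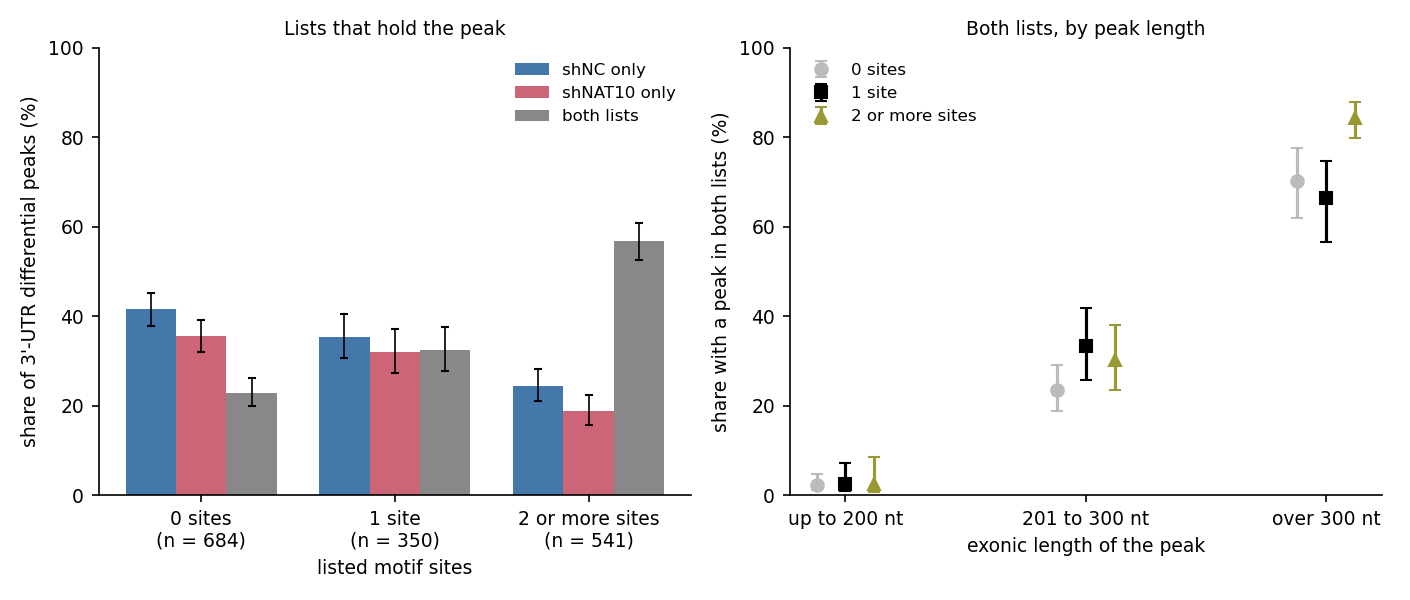
Left, percent of 3′-UTR differential peaks with 0, 1 or 2 or more listed sites that overlapped a peak of the shNC list only, the shNAT10 list only or both lists. Right, percent in both lists by exonic length of the peak. Bars and whiskers or points and whiskers give the share and its 95% Wilson interval over peaks. The share of members in both lists went from 2.56% in the shortest to 66.3% in the longest peaks.

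A peak in 1 list only does not mean that the gene had no peak in the other condition. Of the 124 members in shNC only, 40 (32.3%, 24.7 to 40.9) were in genes that had a peak elsewhere in the shNAT10 list, and of the 112 in shNAT10 only, 28 (25.0%, 17.9 to 33.8) were in genes with a peak elsewhere in the shNC list. Over all differential peaks these shares were 38.0% and 34.9%. A peak in a list also depends on the reads of the gene in the input library, so less acetylation and less RNA cannot be told apart for a peak that is absent from a list.

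Members found in the shNC list only had a median fold enrichment of 16.2 there (quartiles 7.83 and 25.4, range 2.83 to 166). The highest value was that of MAVS, the mitochondrial adaptor of antiviral RNA sensing, at 166-fold (chr20:3870493-3870882). Its peak ranked 38 in that list, and its site lay close to the 3′ edge of the peak, at chr20:3870863-3870874, with the midpoint at 96.5% of the length. CTDSP2, a phosphatase of the tail of RNA polymerase II, followed at 98.8-fold (chr12:57819957-57820286), SPIRE2, an actin nucleator, at 96.7-fold (chr16:89870839-89871199), and OGFOD1, a prolyl hydroxylase of a ribosomal protein, at 82.9-fold (chr16:56477095-56477364). The fifth was C6orf120 at 82.2-fold, and a peak of the same list lay over the same bases on the opposite strand with the same value, 82.2.

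Members in the shNAT10 list only had a median of 18.1 (quartiles 11.2 and 32.7, range 3.98 to 136), close to the members of the control list. BASP1, a membrane-bound protein of growth cones, was highest at 136-fold (chr5:17276364-17276813). Next stood LPCAT3, an acyltransferase that remodels membrane phospholipids, and EMG1, a methyltransferase of the small-subunit ribosomal RNA, both at 112-fold. Their peaks lie on opposite strands over the same bases (chr12:6976306-6976545 on the minus and chr12:6976318-6976528 on the plus strand), with a site of its own for each. Reads there cannot be assigned to 1 gene unless the counting used strand, which is not given in the sources used here. INTS7, a subunit of the Integrator complex, reached 89.6-fold (chr1:211941443-211941712), and WRB, named GET1 in RefSeq and part of the machinery that inserts tail-anchored proteins into the endoplasmic reticulum, 87.9-fold (chr21:39396985-39397194).

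Members in both lists had a median fold enrichment of 18.45 in shNC and 15.95 in shNAT10. The ratio of shNAT10 to shNC had a median of 1.01 (quartiles 0.244 and 3.64), and 57 of the 114 were higher and 57 lower in shNAT10. Over all 1135 differential peaks in both lists, 44.9% were higher and 55.0% lower in shNAT10. The 95% interval of the members' share that was higher, 41.0 to 59.0%, includes the value over all differential peaks. At least 2-fold higher were 39 members (34.2%), at least 2-fold lower 42 (36.8%) and within 2-fold 33 (28.9%), where all differential peaks in both lists gave 28.1%, 33.0% and 38.9%. At least 5-fold higher were 18 members (15.8%, as against 9.96%) and at least 5-fold lower 22 (19.3%, as against 11.6%). Of the 157 3′-UTR peaks with 0 sites in both lists, 22 were at least 5-fold higher, 24 at least 5-fold lower and 27.4% within 2-fold. Of the 307 with 2 or more sites, 33 were at least 5-fold higher and 41 at least 5-fold lower. The intervals of these shares overlapped those of the members, so large ratios were not particular to peaks with 1 site. Where the stricter overlap of at least 50% of the member was asked of both lists, the median ratio was 0.773 over 91 members, on the other side of equal.

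**Figure D3:**
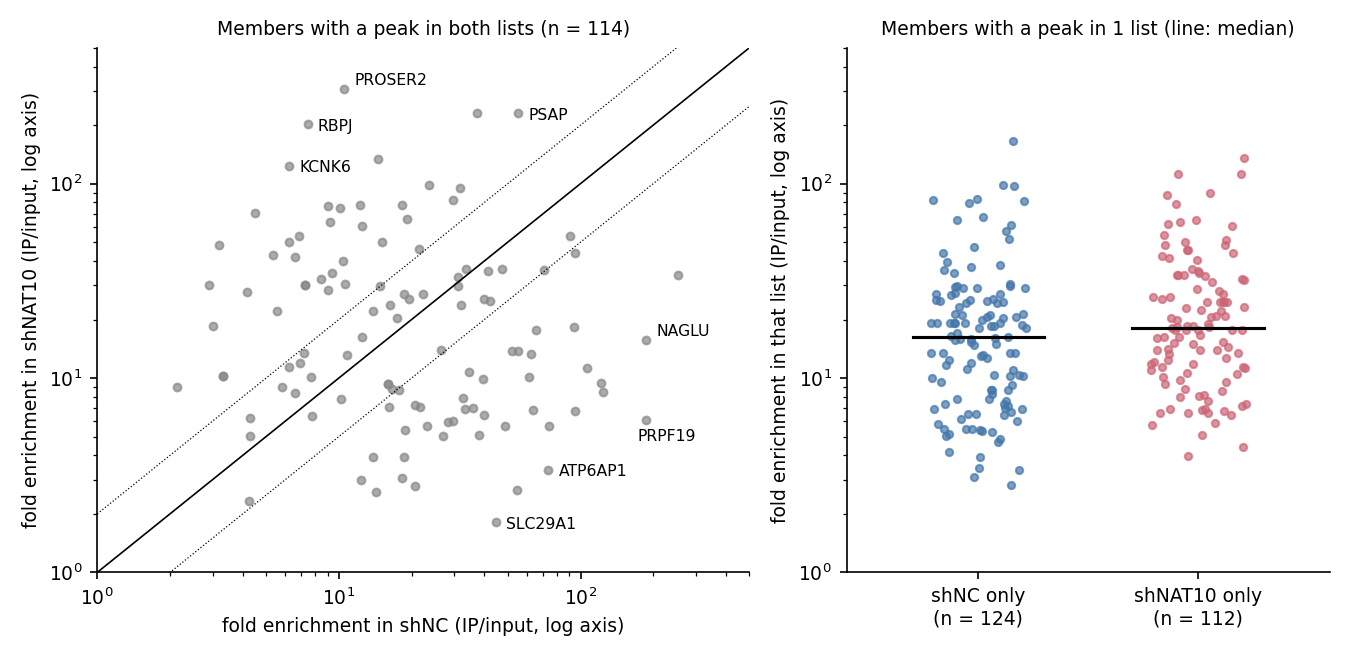
Left, fold enrichment of IP over input in shNAT10 against shNC for the 114 members with a peak in both lists, on log axes, with the line of equal values and dotted lines at 2-fold. Right, fold enrichment of the 124 members in the shNC list only and the 112 in the shNAT10 list only, on a log axis, each point a member and the line the median. Points lie on both sides of the line in equal number, and the medians of the single-list members were 16.2 and 18.1.

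The members with the largest ratios had low peaks in shNC, all 5 below the median of that list (12.4), and tall ones in shNAT10. PROSER2, a proline- and serine-rich protein, had 10.5-fold enrichment in shNC and 305-fold in shNAT10, a ratio of 29.0 (chr10:11870342-11870878, site at chr10:11870588-11870599). RBPJ, the DNA-binding effector of Notch signalling, had 7.42 and 202 (chr4:26430879-26431358). KCNK6, a potassium channel, had 6.22 and 123 (chr19:38329082-38329441), and further 3′-UTR peaks in shNC only (11.4) and in shNAT10 only (24.5). In rank within the list, PROSER2 stood at 3627 in shNC and at 4 in shNAT10, and RBPJ at 4661 and 15. EMD encodes emerin of the inner nuclear membrane and had 4.49 and 71.0 (chrX:154381285-154381523). B4GALT2, a galactosyltransferase of the Golgi, had 3.19 and 48.6 (chr1:43990751-43991140). Further members at least 5-fold higher in shNAT10 included HK1, a hexokinase of glycolysis, at 37.2 and 232, JAGN1, a protein of the endoplasmic reticulum needed in neutrophils, at 14.5 and 134, and VDAC1, a channel of the outer mitochondrial membrane, at 6.81 and 53.8.

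In the other direction the tall peak was that of shNC. PRPF19, a ubiquitin ligase of the spliceosome, had 186-fold enrichment in shNC and 6.07-fold in shNAT10, 30.6 times lower (chr11:60890760-60891057, site at chr11:60890984-60890995). It ranked 24 in the shNC list and 5263 in the shNAT10 list. SLC29A1, which carries nucleosides across the plasma membrane, had 44.5 and 1.81 (chr6:44233794-44234062). ATP6AP1, an accessory subunit of the vacuolar proton pump, had 73.7 and 3.38 (chrX:154436216-154436516). DDX42, an RNA helicase tied to splicing, had 54.6 and 2.66 (chr17:63818958-63819168). MORF4L2, a subunit of a histone acetyltransferase complex, had 124 and 8.45 (chrX:103675526-103676031). AKR1C2, whose site is printed above, had 94.6 and 6.76. The highest shNC value of any member was that of POMGNT1, a glycosyltransferase that acts on dystroglycan, with 253 in shNC and 33.8 in shNAT10.

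**Figure D4:**
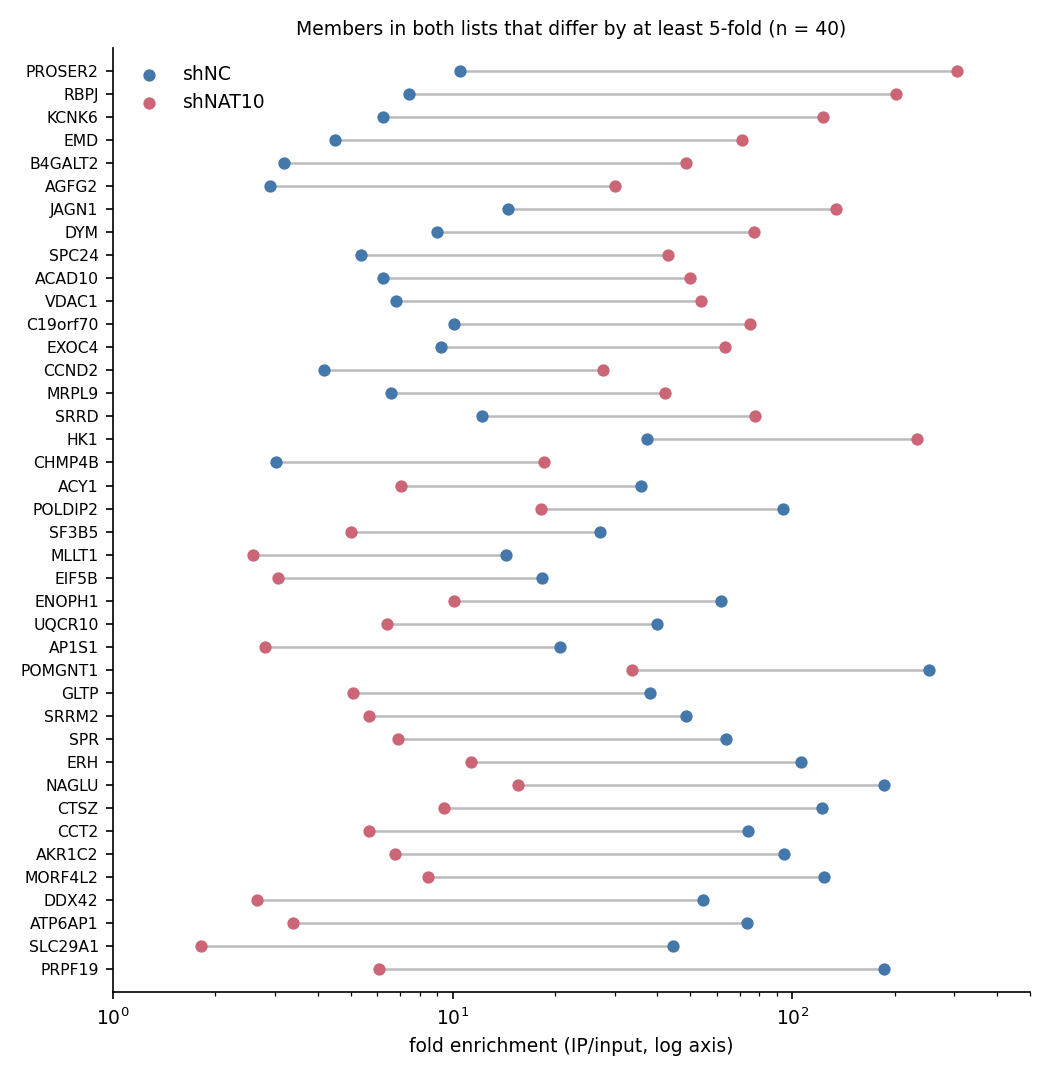
Fold enrichment of IP over input (log axis) in shNC and shNAT10 for the 40 members in both lists whose values differed by at least 5-fold, ordered by the ratio of shNAT10 to shNC. Each line joins the values of 1 peak, 1 IP against 1 input library per condition. The 18 members at the top are higher in shNAT10, up to PROSER2 with 10.5 and 305, and the 22 below are lower, down to PRPF19 with 186 and 6.07.

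NAT10 itself was a member, the gene that the hairpin targets. Its peak lay near the end of the gene (chr11:34146671-34146880, 28 nt from the annotated 3′ end, site at chr11:34146784-34146795) and was in both lists, at 6.91-fold in shNC and 12-fold in shNAT10. The value was thus 1.74 times higher in the library labelled shNAT10. Fold enrichment is the IP relative to the input of the same gene, so it does not show how much NAT10 RNA was left, and it neither checks the depletion nor speaks against it.

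In 8 genes there were 2 member peaks. SETD5, a chromatin protein with a SET domain, had 1 in the shNAT10 list only (24.5-fold, chr3:9476369-9476489) and, 1346 bases further on, 1 in the shNC list only (21.4-fold, chr3:9477836-9477956). PHC2, a Polycomb protein, had 1 in shNC only (10.0-fold) and, 119 bases away, 1 in shNAT10 only (7.39-fold). The other genes held no such pair of single-list peaks. CANX, the chaperone calnexin, had both peaks in both lists, the first near equal (10.2 in shNC and 7.83 in shNAT10) and the other higher in shNAT10 (10.4 and 40.1). NFE2L1, a transcription factor of proteasome genes, had a peak in shNC only (6.71, with 35.2 on the opposite strand in the same list) and another in both lists (16.2 and 7.09). SMARCD3, a subunit of SWI/SNF complexes, had both in shNC only (38.0 and 25.6), and so had SERBP1, an mRNA-binding protein (6.56 and 19.1). The pairs of TMEM184A and ZNF524, at 19.3-fold in shNC only, overlapped and shared a single site, so each is a single stretch listed under different bounds. The 350 members held 343 different sites.

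Another differential peak that is no member was present in 51 of the member genes. In 25 of these genes a peak in both lists was involved, in 17 the peaks were all in the same single list, and in 9 they were in opposite lists. The same counts were not made over all genes with differential peaks, so they describe the member genes only. Values given for a gene are those of its member peak unless stated, and its other peaks can have another order. Among the 9 was MAP2K7, a kinase that activates JNK, with its member in shNC only (4.14-fold) and a 3′-UTR peak with 3 sites in shNAT10 only (23.1-fold). LRRC8D, a subunit of volume-regulated anion channels, had its member in shNAT10 only (41.4) and a coding-sequence peak in shNC only (24.9). SSR1, of the translocon-associated complex, had its member in shNC only (7.17) and a peak with 0 sites in shNAT10 only (33.4).

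Gene lists drawn up by symbol, 11 in all, held 84 of the members, and 266 members were in none. Members of a list were described by their counts in each class, beside those of the list over all differential peaks, and no list was tested. The translation and RNA processing list was the longest, with 19 members (5.43%, as against 8.34% of all differential peaks). Of these 10 were in both lists, 6 in shNAT10 only and 3 in shNC only. Over all differential peaks of that list, 158 of 234 were in both. Among the members in both lists, 4 were higher and 6 lower in shNAT10, and over all differential peaks of the list 75 were higher and 83 lower. HNRNPA3, an RNA-binding protein, had 31.8 in shNC and 95.5 in shNAT10, and LSM3, of the ring that binds U6 RNA, 12.5 and 60.6. EIF6, which keeps the large ribosomal subunit apart from the small one, had 52.1 and 13.8, EIF5B, a factor of subunit joining, 18.3 and 3.05, and SF3B5, of the U2 particle, 27.1 and 5.02. EIF5B also had a coding-sequence peak in the other order, 6.3 in shNC and 12.3 in shNAT10, and a 3′-UTR peak in shNC only (5.01). EIF4A1, the helicase of cap-dependent initiation, was nearer to equal at 22.3 and 27.2. Splicing factors in shNAT10 only included PRPF4 (49.9) and SF3B1 (19.9), and SRSF2 (18.6) was in shNC only.

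The chromatin list had 11 member peaks in 9 genes, 7 in shNAT10 only, 4 in shNC only and 0 in both. Over all differential peaks of the list the counts were 15, 16 and 16. In shNAT10 only were CHD8 (40.7), a remodeller, CBX6 (20.8), a Polycomb protein, CHD2 (16.1), PHF23 (17.7) and SETDB1 (7.61), a histone methyltransferase, beside the SETD5 peak above. KAT5, the catalytic subunit of the TIP60 complex, was in shNC only at 5.44, where a peak of the same list on the opposite strand, in RNASEH2C, had the same value. SETDB1 also had an opposite-strand peak, with 11.4 in shNAT10. The list was drawn by symbol and leaves out other chromatin proteins among the members, such as MORF4L2 above and MTA2, a subunit of the NuRD complex with 34.4 in shNC and 10.7 in shNAT10, both of them in both lists, so the count of 0 holds for the listed symbols only.

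In the MAP kinase and growth factor list, 4 of 5 members were in shNC only and 1 in shNAT10 only, as against 11 and 6 of 22 over all differential peaks. Among those in shNC only were PTPN18 (34.9), a tyrosine phosphatase, DUSP9 (29.7), a phosphatase of MAP kinases, and MAP2K7 (4.14). MAP4K4 (11.2), an upstream kinase, was in shNAT10 only. The list holds both kinases and their phosphatases, which act in opposite directions on the pathway.

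Of the small GTPase and vesicle list, 5 of 8 members were in shNC only, 1 in shNAT10 only and 2 in both lists (37, 18 and 31 of 86 over all differential peaks). RHOA, which governs actin stress fibres, was in shNAT10 only at 51.5 (chr3:49359887-49360005). RHOA had 2 further 3′-UTR peaks, each with 0 sites. The nearer one (chr3:49359679-49359827) was in shNAT10 only as well, again at 51.5. The other (chr3:49359175-49359620) was in both lists, with 78.0 in shNC and the same 51.5 in shNAT10, the opposite order to that of a peak in shNAT10 only. Each value is that of the highest overlapping list peak, so equal values can come from a single list peak. RAC1, which drives lamellipodia, was in shNC only at 6.45 (chr7:6403708-6403947). ARF4 (15.4), a regulator of Golgi traffic, AP1M2 (18.8), an adaptor subunit of epithelial sorting, and VAMP8 (10.4), a fusion protein of endosomes, were in shNC only as well. ARHGEF19, an exchange factor for RHOA, had 29.7 in shNC only, with an opposite-strand peak of 9.67 in that list. AP1S1, the small subunit of the same adaptor, was in both lists with 20.7 in shNC and 2.80 in shNAT10.

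The ubiquitin list had 10 members, 4 in shNC only, 3 in shNAT10 only and 3 in both (22, 28 and 31 of 81 over all differential peaks). PSMA6, of the proteasome core, had 13.9 in shNC and 22.0 in shNAT10. CUL5 (29.0), a cullin scaffold, and PSMG3 (18.6), a proteasome assembly chaperone, were in shNC only. PSME3 (11.8) and PSMD11 (5.70), proteasome regulators, were in shNAT10 only. UBE2V1 had 16.0 and 9.30, the same values as the readthrough gene TMEM189-UBE2V1 over the same bases, so the pair is a single signal.

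In the mitochondrial list, 4 of 7 members were in both lists, 2 in shNC only and 1 in shNAT10 only (51, 26 and 22 of 99 over all differential peaks). TIMM9, an import chaperone, had 21.4 in shNC and 45.9 in shNAT10, while UQCR10, a small subunit of complex III, had 39.8 and 6.42. NDUFA4, a subunit of the respiratory chain, had 5.79 and 8.95. MRPL9, a mitochondrial ribosomal protein, had 6.56 and 42.1, with a peak on the opposite strand at 12.7 and 78.2.

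The solute carrier and ABC list had 8 members, 2 in shNC only, 3 in shNAT10 only and 3 in both (16, 14 and 19 of 49 over all differential peaks). Beside SLC29A1, SLC1A5, the glutamine transporter ASCT2, was in both lists at 4.30 and 5.03, and SLC35C2 (24.9) was in shNC only. SLC2A4RG had 20.7 in shNC and 7.27 in shNAT10 and is a DNA-binding regulator, not a carrier, and ABCF2 (14.9 in shNAT10 only) lacks membrane-spanning segments.

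The remaining lists were small. Among 6 members of the chaperone and apoptosis list, 3 were in shNC only, 1 in shNAT10 only and 2 in both (15, 9 and 17 of 41). CCT2, of the cytosolic chaperonin, had 73.9 in shNC and 5.66 in shNAT10, and HSPA1B, an inducible HSP70 whose reads can be shared with its near-identical copy HSPA1A, 16.3 and 23.7. HSPG2, drawn in by its symbol, encodes the matrix proteoglycan perlecan and had 15.7 in shNC only, the same value as a peak of LDLRAD2 on the opposite strand. The cell cycle list had 1 member in shNC only and 2 in both lists (19 in shNC only, 13 in shNAT10 only and 21 in both of 53 over all differential peaks). Of these 3, CCND2, which encodes cyclin D2, had 4.18 in shNC and 27.7 in shNAT10, CDC25B, a phosphatase that activates cyclin-dependent kinases, 31.9 and 23.7, and E2F5 was in shNC only at 81.5, with an opposite-strand peak of C8orf59 at 100 in the same list. The epithelial list had 1 member in each class (10 in shNC only, 8 in shNAT10 only and 34 in both of 52 over all differential peaks). CTNND1, which encodes p120-catenin, was in shNAT10 only (24.5), the matrix inhibitor TIMP3 in shNC only (19.3), and S100A10, a partner of annexin A2, in both at 31.1 and 29.9. The zinc finger list had 4 peaks in 3 genes, 3 in shNC only and 1 in both lists (15 in shNC only, 9 in shNAT10 only and 6 in both of 30 over all differential peaks). They were ZNF511 at 61.5 and the ZNF524 pair, a single stretch counted as 2 peaks, in shNC only, and ZFP36L2, an mRNA-decay factor and not a transcription factor, at 10.6 in shNC and 30.4 in shNAT10.

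**Figure D5:**
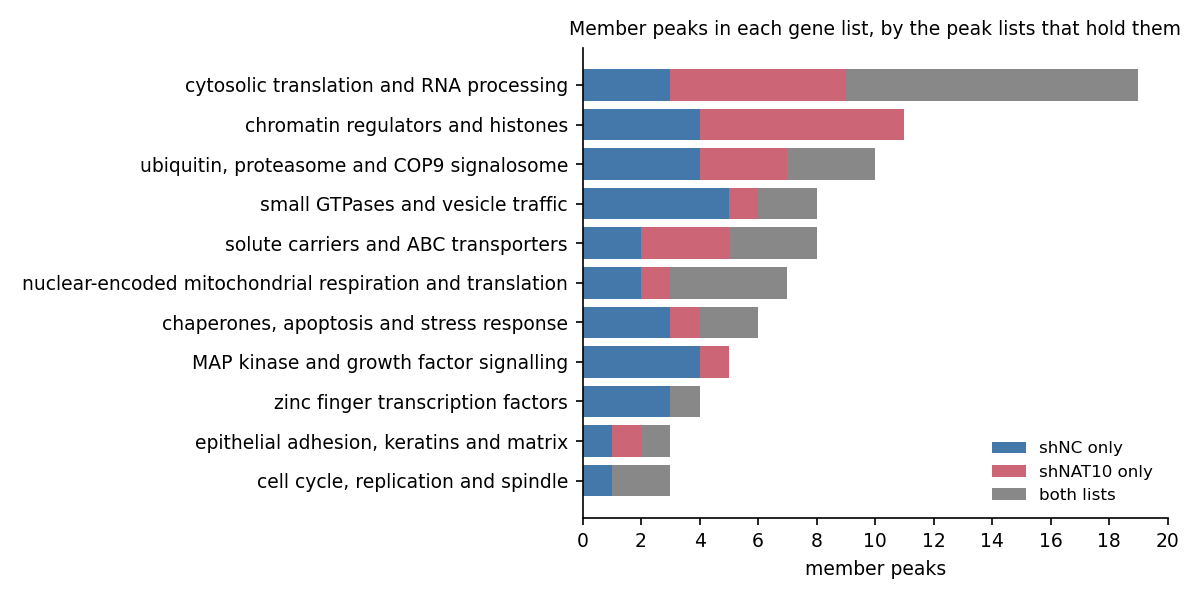
Number of member peaks in each of the 11 gene lists, stacked by whether the shNC list only, the shNAT10 list only or both lists held the peak. The translation and RNA processing list had most members in both lists (10 of 19), and the chromatin list had 0 of 11 there.

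Peaks on both strands over the same bases bear on which gene a member belongs to. For 37 members (10.6%, 7.77 to 14.2) at least 1 list held a peak on the opposite strand that overlapped the exonic blocks, a share near the 11.4% of all differential peaks. They were 16 of the members in shNC only, 12 in shNAT10 only and 9 in both lists. In 14 of the 37 the fold enrichment was identical on both strands in the same list, to the digits the lists give. Beside EMG1 and LPCAT3 this was so for HTRA2 and LOXL3 at 45.6, for VGLL4 and ATG7 at 78.6, and for TFIP11 and SRRD at 77.7, all in shNAT10. In 29 of the 37 the differential table also had a peak on the other strand. On the same strand, 12 members (3.43%) overlapped a differential peak of another gene, and 2 of these, DIABLO and AC048338.1, were also among the 37. Without the 37 members, 108 were in shNC only, 100 in shNAT10 only and 105 in both.

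FaDu cells are squamous epithelial cells, and the files allowed only a coarse look at their markers, since the peak lists carry no levels of whole transcripts. Of 10 squamous epithelial genes, 1 (ITGB4) had a differential peak, of 4 blood genes 0, and of 4 fibroblast genes 1 (COL1A1). A differential peak is no measure of expression, so the cell type could not be checked from these values.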

How the data were processed

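RNA of FaDu cells was fragmented, precipitated with an antibody against ac4C and sequenced together with input RNA, 1 library of each kind per condition. The submitters' processing notes list cutadapt 2.5, HISAT2 2.1.0, HOMER 4.10.4 and featureCounts 1.6.3, and the builds GRCh38, hg38 and GRCm38, with no role given. Coordinates are those of the files, read as GRCh38 and given from 1. The authors called peaks for each condition and deposited, per peak, the ratio of IP to input as fold enrichment. They also deposited the log10 of the p-value and FDR of each peak. The differential table adds the authors' own fold changes, p-values and FDR between conditions, which were not used. It gives each peak a region class and the listed motif sites. Whether counting used strand, the annotation release and the threshold of the peak lists are not given in the sources used here. No replicates exist, so shares have 95% Wilson intervals and no test was run.

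Members were placed in a list by an overlap of at least 1 base on the same strand, with the highest fold enrichment among overlapping list peaks. Listed sites on the minus strand in peaks of several blocks had the blocks in mirrored order. As listed, 347 of 755 such sites (46.0%) had their first or last base outside the blocks, among them those of 10 members. After the order was reversed all 755 lay inside, but there only 1 base of each site was checked. On the plus strand, where no order was reversed, 9 of 770 sites in peaks of several blocks had their first or last base outside. The overlap and the site placement were run on simulated data. The simulated sites were written in the same mirrored order, so this checks the code and not whether that order is right. Gene names are those of the files, and 342 of 350 members matched a RefSeq gene (97.7%).

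Named genes were the 5 highest in fold enrichment of each single list, the 5 largest and 5 smallest ratios of members in both lists, genes with 2 member peaks (at most 8), genes that the study names, and up to 4 per gene list. Further genes of the lists, of the 5-fold figure and of the opposite-strand and second-peak paragraphs, and MTA2, were named after their values were seen. The members and lists were chosen with earlier results of these data known. Gene lists were drawn by symbol, so some members lack the function in its name. Tables were handled with pandas 2.3.3 in Python 3.11.15, beside scipy 1.17.1 and numpy 2.4.6, and plots were drawn with matplotlib 3.10.9. Some genes that these rules would name are not reported here.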

Additional observations from a re-analysis of the deposited data

How the results depend on the processing

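Of 35 alternatives to the counts, medians and shares, 33 stayed within the interval of the reported value or within 1.5 times the count. Many of them kept 313 or more of the 350 members and could move little, so the tally is no measure of robustness. With list peaks at an FDR of at most 1e-10, 66 members were in both lists in place of 114. Of the others, 26 were then in shNC only, 20 in shNAT10 only and 2 in neither list, and 51 of the members in shNC only and 39 of those in shNAT10 only were in neither. The counts of 99 in shNC only and 93 in shNAT10 only at that limit were among the 33, but 73 members of each class had stayed in it. Within 1000 nt of the annotated 3′ end lay 70.8% of the members, in place of 60.5% within 500 nt, as a wider limit must give. The median ratio of shNAT10 to shNC in both lists was 1.01, 0.909 with the list peak of largest overlap and 0.773 with an overlap of at least 50% of the member, so its side of equal is not settled. With the same settings 56 of 114 and 43 of 91 members were higher in shNAT10. The restriction to members with no list peak on the opposite strand, the counts of members higher in shNAT10 and the restriction of the site position to sites listed inside a block were added after seeing the data. No paired analysis was possible because there was 1 IP and 1 input library per condition. No reads per library were at hand, so precision from depth could not be given.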

Other observations

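Lysosomal and vacuolar proton pump genes, gathered after their values were seen, held 8 members, 6 of them in both lists and 2 in shNC only. NAGLU, an enzyme that degrades heparan sulphate, had 186-fold enrichment in shNC and 15.6-fold in shNAT10, and CTSZ, a cysteine cathepsin, 122 and 9.44. CTSB, another cysteine cathepsin, had 90.1 and 53.7, and ATP6V1C2, a subunit of the proton pump, 42.3 and 25.0, with an opposite-strand peak of 38.8 and 31.0. ATP6AP1, given in the report, was lower in shNAT10 as well. PSAP, the precursor of the saposins, had 55.3 and 230, the opposite order. ATP6V1E1 (25.3), a further pump subunit, and LIPA (5.18), the lysosomal acid lipase, were in shNC only. Over all differential peaks the same genes and their relatives gave 34 peaks, 20 in both lists, 8 in shNC only and 6 in shNAT10 only. Of the 20, 12 were lower and 8 higher in shNAT10, and of the 6 members in both lists 5 were lower and 1 higher. The group was chosen from these values, so its counts are a description and no test was run.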
